A study of Mus musculus with 8 samples.

Results

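Ank3, Rnf152, Ky, Ednrb, Prox1, Nckap5, Naip6 and Ttbk1 are 8 genes that were selected from the 52459 genes listed for these regulatory T (Treg) cell libraries because they fell far in cells labelled as lacking Stim1 and Stim2 and are little known in Treg cells. The study asked what calcium influx through STIM proteins controls in mature Treg cells. CD4+CD25hi Treg cells were sorted from pooled spleens and lymph nodes of several female heterozygous C57BL/6 mice per sample, and their RNA was sequenced in 8 libraries, 2 for each of 4 groups. WT cells had not expressed the YFPcre transgene, which the Foxp3 promoter drives, and DKO cells had expressed it, with the genotype labelled Stim1 fl/f and Stim2 fl/fll with Foxp3-YFPcre, so that genotype cannot be told apart from the YFPcre allele. Both kinds of cell came from the same kind of mouse, they were left unstimulated or were stimulated for 16 h with 1 µg/ml of plate-bound anti-CD3/CD28, and the labels do not give the age of the mice.

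The members were found by symbol, and all 8 were among the 15419 genes that averaged 10 or more normalized counts over the libraries and were tested. Ranking the genes that passed the test by their log2 fold change placed Ank3, Rnf152, Ky and Ednrb among the 5 largest decreases in unstimulated cells, and Prox1, Nckap5, Naip6 and Ttbk1 among the 5 largest in stimulated cells. Each gene was therefore taken as chosen on the genotype difference in 1 of the 2 states, although the selection itself named no state. Values in that state are a description without a test, and only the genotype difference in the other state was tested. The counting intervals below cover counting error only. They allow for neither the choice of the genes nor the spread between libraries, and they are no test. Prox1 and Nckap5 also ranked 11 and 17 among the 517 decreases that passed the test in unstimulated cells. Their test there may thus not be free of the choice. The remaining gene of each top 5 was left out of the selection as well known, namely the inhibitory lectin receptor Klrg1 in unstimulated cells and the TNF receptor family member Tnfrsf8 (CD30) in stimulated cells.

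STIM1 and STIM2 sense the calcium content of the endoplasmic reticulum and, when it falls, open ORAI channels in the plasma membrane. The calcium that enters activates calcineurin and, through it, NFAT transcription factors, which often act with AP-1 at genes that respond to the T cell receptor. The 8 genes come from other settings. Ank3 encodes ankyrin-G, which ties membrane proteins to the spectrin skeleton, and Ky encodes a muscle protein of the Z-disc. Rnf152 encodes a lysosomal ubiquitin ligase that acts on the Rag GTPases upstream of mTORC1. Ednrb is a G protein-coupled receptor for endothelins, and Prox1 is a homeobox transcription factor known for lymphatic endothelial identity. Nckap5 encodes a little-studied Nck-associated protein, Naip6 belongs to a family of sensors of bacterial proteins that assemble with Nlrc4, and Ttbk1 is a kinase of neurons that phosphorylates tau.

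The sequence before the start of the 8 genes was examined because NFAT is a known effector of STIM signalling. RefSeq (GRCm38.p6) gave 9 promoter windows for 7 of the genes, all but Ank3. The core of the NFAT site, GGAAA on either strand, occurred within 250 bases before the start in 5 of the 9 windows, against 55.6% of all 32851 promoters. The AP-1 motif TGANTCA was in 0 of the 9 windows and in 6.75% of all promoters, and the full CRE motif TGACGTCA was in 0 of 9 and in 1.55%. These matches describe letters and not occupied sites. The 3 windows below are those of members that lie wholly outside the annotated gene. They are written 5′ to 3′ on the strand of the gene, with GGAAA or its reverse complement in capitals. Prox1 (chr1:190170828-190171077, minus strand) had 1 match, which began 14 bases before the start. Ttbk1 (chr17:46487676-46487925, minus strand) had 1 match, which began 88 bases before the start. Naip6 (chr13:100316617-100316866, minus strand) had none.
Prox1: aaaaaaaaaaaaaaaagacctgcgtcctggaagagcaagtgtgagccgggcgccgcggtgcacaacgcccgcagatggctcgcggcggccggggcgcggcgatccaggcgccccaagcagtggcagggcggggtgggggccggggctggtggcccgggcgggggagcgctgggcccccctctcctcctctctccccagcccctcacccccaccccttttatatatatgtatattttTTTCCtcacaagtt
Ttbk1: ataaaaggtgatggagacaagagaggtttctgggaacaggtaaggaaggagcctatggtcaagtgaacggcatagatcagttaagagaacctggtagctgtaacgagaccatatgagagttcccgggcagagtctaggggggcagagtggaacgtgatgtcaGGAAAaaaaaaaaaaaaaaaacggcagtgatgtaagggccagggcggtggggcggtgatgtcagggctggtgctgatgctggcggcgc
Naip6: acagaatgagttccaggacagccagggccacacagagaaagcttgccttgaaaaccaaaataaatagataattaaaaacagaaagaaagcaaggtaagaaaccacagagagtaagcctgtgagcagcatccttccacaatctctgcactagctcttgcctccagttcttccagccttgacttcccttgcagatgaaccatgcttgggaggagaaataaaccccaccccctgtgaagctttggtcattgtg

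Of the other members, Ky and Nckap5 had a match in a window that overlaps the annotated gene, at 232 and 141 bases before the start respectively, Rnf152 and Ednrb had none, and a second Prox1 window had matches at 137 and 30 bases.

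Naip6 is the member whose reads are hardest to place. It lies in a cluster of near copies on chromosome 13, and its coding sequence of 4212 bases was 96.96% identical to that of Naip5, with 128 differences and the longest identical run at 229 bases. In the GENCODE M1 transcripts, 20.7% of the 6825 windows of 50 bases, the length of the reads, also occurred in another gene, and 16.8% occurred in Naip5. For the other 7 members this share was at most 0.248%. The stretch of 60 coding bases with the most differences between the genes, positions 41 to 100 of both, is shown with the 10 differing bases in capitals. A read from here can be placed, whereas one from an identical run cannot.
Naip6: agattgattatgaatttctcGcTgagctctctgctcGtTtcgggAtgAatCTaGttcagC
Naip5: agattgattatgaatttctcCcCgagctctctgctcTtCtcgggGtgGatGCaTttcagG

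Facts of the whole series bear on all 8 genes. Read totals ran from 11851853 to 16306540 a library, and a normalized count, the unit of the levels below, is a scaled read, with 1 read worth 0.759 to 1.48 of them. Stim1 stood at 1139 and 1377 normalized counts in unstimulated WT and at 1538 and 1868 in the libraries labelled DKO, and after stimulation 645 and 673 against 552 and 642. Stim2 had 906 and 908 against 904 and 744, and after stimulation 665 and 782 against 620 and 696. Counts over a whole gene do not tell which exons were read and so do not check the deletion, and the DKO libraries are named by their label. Of 10 Treg markers, 6 were lower in both DKO libraries than in both WT libraries without stimulation and 6 with it. That held for 27.1% and 23.1% of all tested genes. Higher in both DKO libraries were 0 without stimulation and 2 with it, Cd3d and Cd5. Foxp3 was lower in both states, with 10001 and 8158 normalized counts in unstimulated WT against 4947 and 4258 in DKO. Summed over 10 macrophage and monocyte markers, unstimulated WT libraries held 369 to 372 normalized counts, DKO replicate 1 held 5074 and DKO replicate 2 held 966, with 9 of the 10 higher in both DKO libraries. Over 8 B cell markers the sums were 281 to 294 in unstimulated WT, 2690 in DKO replicate 1 and 581 in DKO replicate 2. Over 5 neutrophil markers they were 133 and 91.6 in unstimulated WT against 713 and 331 in DKO, with 5 higher in both DKO libraries. For 5 NK and CD8 T cell markers they were 317 and 273 against 838 and 295, with 4 higher. Of 6 dendritic cell markers, 4 were higher and 2 lower in both unstimulated DKO libraries. After stimulation the B cell sums were 959 and 180 in WT and 1444 and 264 in DKO. Fibroblast and pericyte markers, 7 genes, were scarce. Without stimulation 3 of the 7 were lower and 1, Dcn, was higher in both DKO libraries, and with stimulation 2 were lower and 0 higher. Their sums, mostly Col1a1 and Col1a2 in WT, were 28.1 and 34.0 in unstimulated WT against 10.5 and 9.36, and 36.6 and 28.1 in stimulated WT against 4.77 and 0.84, and Pdgfra and Lum were at 0 throughout. The part of these cells in the results was not tested. In these bulk samples, fewer cells of a kind and less RNA per cell cannot be told apart.

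All 8 genes were lower in both DKO libraries than in both WT libraries, in unstimulated and in stimulated cells alike. In the state taken as not used by the choice, this held for 4 of 4 genes in unstimulated cells and for 4 of 4 in stimulated cells. It held for 27.1% and 23.1% of all tested genes respectively. The test called 2 of these 4 genes, Prox1 and Nckap5, lower in unstimulated cells, where 3.35% of all tested genes were called lower and 1.38% higher. In stimulated cells, where 0.11% of all tested genes were called lower and 0.162% higher, it called 0 of the 4 (limma), although all 4 had an unadjusted p under 0.05, edgeR called 0 and DESeq2 called 1, Rnf152. The plot of every library shows the 4 groups of each gene.

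**Figure D1:**
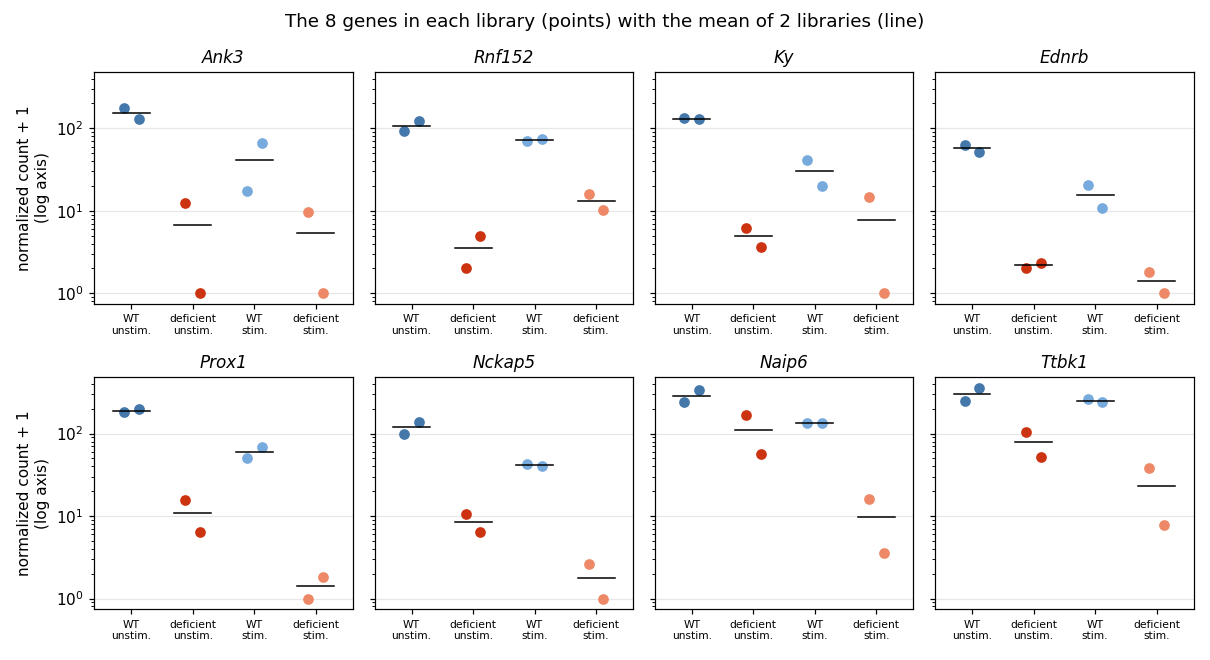
Normalized counts plus 1 (log axis) of the 8 genes in each library; columns are the 4 groups of genotype and stimulation, points are libraries (2 a group, deficient meaning labelled DKO) and lines are group means. In every panel both DKO points lie below both WT points of the same state, with the smallest gap for Ky in stimulated cells, 19.0 against 13.5 normalized counts.

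Prox1 was among the members with the highest level per length in unstimulated WT cells. Its normalized counts were 180 and 196 in WT, and 14.7 and 5.34 in DKO. The DKO libraries lay far below both WT libraries, which were close to each other. The limma fit gave a log2 fold change of -4.25 ± 0.65 (SE) and an adjusted p of 0.0106. The difference of means was 18.8-fold, in a state taken as not used to choose the gene. The spread in that fit comes from all 4 groups, those of the choice included, and a fit to the 4 unstimulated libraries alone gave an adjusted p of 0.0222. The fold of means was 35.3 without DKO replicate 1 and 12.8 without DKO replicate 2. Without DKO replicate 1 the log2 fold change was -4.90 (adjusted p = 0.00869), and without WT replicate 3 or 4 the adjusted p was 0.189 or 0.0915. In stimulated cells, where the gene ranked first among the decreases, WT had 49.1 and 66.8 normalized counts and DKO had 0 and 0.84. That is 151 reads against 1 read, a ratio of 142 with a 95% counting interval of 25.1 to 5642, which covers counting error only. The fold of means was 138, and 69 without DKO replicate 1. A set of 7 markers of lymphatic endothelium was scarce in the same libraries. Their sums were 0 to 2.95 normalized counts in unstimulated WT cells and 5.34 to 23.1 in unstimulated DKO cells. After stimulation they were 2.28 to 16.4 in WT and 0 to 10.3 in DKO. Ccl21a was at 0 in every library, and Lyve1, Flt4, Sox18 and Mmrn1 never exceeded 3 reads. Reln was at 0 in unstimulated WT and at 16.8 and 5.34 in DKO. Angpt2, a gene of the lymphatic programme outside these 7, was not scarce. It had 71.2 and 170 in unstimulated WT against 325 and 198 in DKO, and 304 and 248 against 228 and 171 after stimulation.

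Nckap5 had 98.2 and 139 normalized counts in unstimulated WT cells and 9.44 and 5.34 in DKO libraries. The groups were wide apart compared with the gap within each. The means differed 16-fold, again in a state taken as not used to choose the gene. DKO differed from WT by -3.86 ± 0.68 (SE, log2 scale, limma adjusted p = 0.0175, and 0.0226 in the 4 unstimulated libraries alone). Without DKO replicate 1 it was -4.22 (adjusted p = 0.0241), and without WT replicate 3 or 4 the adjusted p was 0.219 or 0.13. After stimulation the level was 41.3 and 39.5 in WT and 1.59 and 0 in DKO. The 105 reads of WT stood against 2 reads of DKO, a ratio of 49.3 with a counting interval of 13.3 to 413. The fold of means was 50.8, and 25.4 without DKO replicate 2. The test of Prox1 and Nckap5 in unstimulated cells may not be free of the choice, given their ranks of 11 and 17 there. They were the members that passed the test in the state taken as not used to choose them. With a pseudocount of 0.1 neither did (adjusted p 0.0536 for Prox1 and 0.0996 for Nckap5), and edgeR (0.0138 and 0.0228) and DESeq2 (2.15e-08 and 8.73e-06) called both.

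Naip6 and Ttbk1, also chosen in stimulated cells, differed less between WT and DKO in unstimulated cells than Prox1 and Nckap5 did. Naip6 had 238 and 334 normalized counts in unstimulated WT cells, 166 in DKO replicate 1 and 54.8 in DKO replicate 2. The DKO libraries lay below WT but differed from each other more than the WT libraries did. On the log2 scale, DKO minus WT was -1.55 ± 0.69 (SE, limma adjusted p = 0.223). Without DKO replicate 1, the library with the most macrophage transcripts, the ratio of means was 5.23 in place of 2.60, and without DKO replicate 2 it was 1.73. The part of macrophage RNA in this value was not tested. In stimulated cells Naip6 had 133 and 132 normalized counts in WT and 15.1 and 2.53 in DKO, where macrophage markers summed to 126 to 265 in WT and 344 to 424 in DKO. The ratio of means was 15.1 (345 reads against 22, counting interval of the pooled ratio 9.58 to 23.8). It was 52.4 without DKO replicate 1 and 8.79 without DKO replicate 2.

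Ttbk1 had 248 and 359 normalized counts in unstimulated WT cells and 104 and 50.8 in DKO libraries. These groups did not overlap, and the fold of means was 3.93, and 5.98 without DKO replicate 1. The limma fit gave a log2 fold change of -2.02 ± 0.65 (SE) and an adjusted p of 0.104, and DESeq2 gave an adjusted p of 0.00812. The adjusted p was 0.0211 without stimulated DKO replicate 1, 0.0201 without stimulated DKO replicate 2 and 0.1 without unstimulated DKO replicate 1. In stimulated cells the level was 260 and 238 in WT and 37.3 and 6.75 in DKO. The WT libraries agreed closely, whereas 1 DKO library held several times the level of the other. The ratio of means was 11.3 (647 reads against 55, counting interval of the pooled ratio 8.39 to 14.8), 36.9 without DKO replicate 1 and 6.67 without DKO replicate 2. Among 7 neuron and glia markers, Syt1 was at 0 in every library and Sox10 and Tubb3 never exceeded 3 reads, and the list summed to 14.8 to 18.4 normalized counts in unstimulated WT and 37.4 to 57.7 in unstimulated DKO cells.

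Ank3 had the largest decrease of all genes that passed the test in unstimulated cells. Its normalized counts were 175 and 129 in WT and 11.5 and 0 in DKO, so that 1 DKO library held 11 reads and the other none. The ratio of means was 26.3, and 13.2 without DKO replicate 2. In stimulated cells, taken as not used to choose the gene, WT libraries had 16.4 and 64.5 normalized counts and DKO libraries had 8.73 and 0. The WT libraries lay far apart, and the lower one was near the higher DKO library. DKO differed from WT by -3.44 ± 1.31 on the log2 scale (SE, limma adjusted p = 0.273). The size of the difference depended on single libraries, with a ratio of means of 9.27 over all 4, 14.8 without WT replicate 1, 3.75 without WT replicate 2 and 4.63 without DKO replicate 2.

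Rnf152 had 92.8 and 121 normalized counts in unstimulated WT cells and 1.05 and 4.01 in DKO libraries. The 168 reads of WT faced 4 reads in this state of choice, a ratio of 44.6 with a counting interval of 17.1 to 166. The ratio of means was 42.3, and 26.7 or 102 without DKO replicate 1 or 2. In stimulated cells the counts were 68.6 and 72.9 in WT and 15.1 and 9.29 in DKO. Both pairs were tight, and the ratio of means was 5.80. On the log2 scale, DKO minus WT was -2.48 ± 0.60 (SE, limma adjusted p = 0.105), and DESeq2 gave an adjusted p of 0.00467. The adjusted p was 0.0404 without unstimulated DKO replicate 1 and 0.0478 without unstimulated DKO replicate 2, which left the fold change as it was. It was 0.525 without stimulated DKO replicate 2, 0.36 and 0.449 without the stimulated WT replicates 1 and 2, and 0.247 and 0.243 without the unstimulated WT replicates 3 and 4. Rnf152 was the single member with a higher level in both stimulated than in both unstimulated DKO libraries, 30 reads against 4.

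Ky had 131 and 130 normalized counts in unstimulated WT cells, which were nearly equal, and 5.24 and 2.67 in DKO libraries, a ratio of 32.9. In stimulated cells the values were 40.5 and 19.0 in WT and 13.5 and 0 in DKO. The lower WT library and the higher DKO library were thus close to each other. The limma fit gave a log2 fold change of -2.92 ± 1.07 (SE) and an adjusted p of 0.254. It was -4.85 without DKO replicate 1 (adjusted p = 0.0122) and -0.99 without DKO replicate 2 (adjusted p = 0.968). Of 6 skeletal muscle markers, 5 never exceeded 3 reads in any library and Myh4 was at 0 throughout. The remaining marker, Ckm, had 1.08 and 4.43 normalized counts in unstimulated WT and 13.6 and 8.01 in DKO libraries. The list summed to 4.32 to 4.43 in unstimulated WT and to 10.7 to 16.8 in unstimulated DKO cells.

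Ednrb was the lowest of the 8 genes in WT cells by counts. It had 62.6 and 50.2 normalized counts in unstimulated WT cells, against 1.05 and 1.34 in DKO libraries, which is 92 reads against 2 and a ratio of 48.8 (counting interval 13.1 to 409). In stimulated cells it had 19.5 and 9.87 in WT and 0.79 and 0 in DKO. Here 38 reads faced 1 read, a ratio of 35.7 with a counting interval of 6.03 to 1447. The log2 fold change in stimulated cells was -3.48 (standard error 0.85, limma adjusted p = 0.108), and without stimulated DKO replicate 1 it was -3.90 (adjusted p = 0.0445). The adjusted p was 0.457 without stimulated DKO replicate 2, and 0.432 and 0.383 without the stimulated WT replicates 1 and 2. The fold of means was 37.2, and 18.6 without DKO replicate 2.

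**Figure D2:**
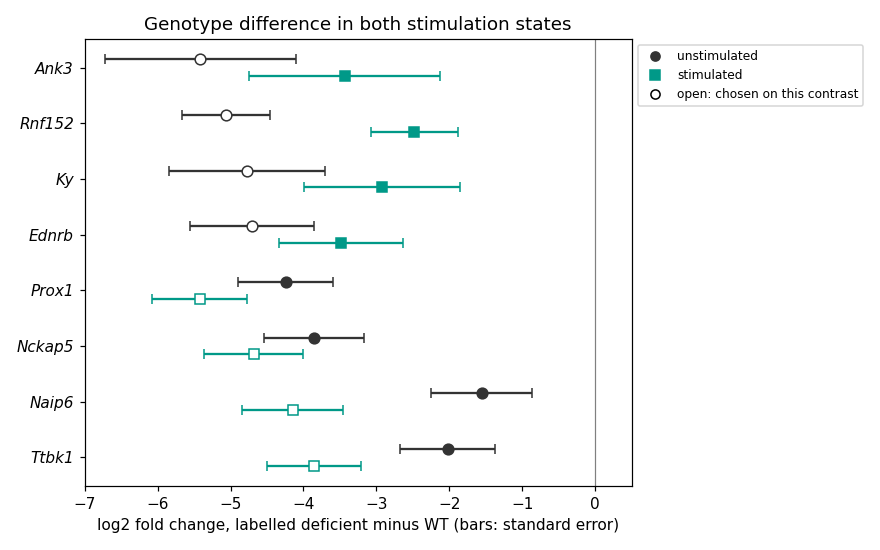
Log2 fold change of DKO over WT (x axis) with its standard error for the 8 genes in unstimulated (circles) and stimulated (squares) cells. Open symbols are contrasts taken as those on which the gene was chosen. Every value is below 0, and among the filled symbols only Prox1 (-4.25) and Nckap5 (-3.86) passed the test.

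At the threshold of the choice, the values inside and outside were close. In unstimulated cells Ednrb was at rank 5 with a log2 fold change of -4.70, and the chemokine gene Cxcl11 at rank 6 with -4.66, at 39.9 and 31.0 normalized counts in WT and 1.05 and 0 in DKO. In stimulated cells Ttbk1 was at rank 5 with -3.86, and the connexin gene Gjb2 at rank 6 with -3.80, at 10.9 and 15.2 normalized counts in WT and 0 in both DKO libraries. Of the genes left out, Klrg1 had 2136 and 1715 normalized counts in unstimulated WT and 155 and 20.03 in DKO, and Tnfrsf8 had 770 and 714 in stimulated WT and 99.3 and 16.0 in DKO. In WT cells of the state that ranked them, both stood above all 8 members.

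To compare levels between genes, counts were divided by exon length (kb, GENCODE M1). In unstimulated WT cells, Prox1 was at 45.6 ± 2.78 normalized counts per kb (SD, n = 2), Ttbk1 at 43.6 ± 11.3 and Naip6 at 41.9 ± 9.88, and these 3 overlapped. Ky followed at 22.3 ± 0.071, apart from those above and below it. Ank3 at 14.3 ± 3.08, Ednrb at 14.0 ± 2.17 and Rnf152 at 12.5 ± 2.35 overlapped, and Nckap5, at 9.80 ± 2.38, overlapped with Rnf152.

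Stimulation was accompanied by lower levels of most of these genes in WT cells. All but Ttbk1, 7 of 8, were lower in both stimulated than in both unstimulated WT libraries, which held for 36% of all tested genes. The fold of means ranged from 1.51 for Rnf152 to 4.38 for Ky, which was 6.86 or 3.21 without stimulated replicate 1 or 2. Ttbk1 had overlapping values at a ratio of 1.22. In DKO cells 5 of 8 genes (Ednrb, Prox1, Nckap5, Naip6 and Ttbk1) were lower in both stimulated libraries, against 30.6% of all tested genes. For Ednrb this rested on 1 and 1 reads without and 1 and 0 reads with stimulation, which do not show a fall. For Naip6 the DKO mean was 110 normalized counts without and 8.81 with stimulation, a 12.5-fold difference, and for WT the ratio was 2.16. The DKO fold was 6.22 without unstimulated replicate 1, the library with the most macrophage transcripts, 18.8 without unstimulated replicate 2, 43.6 without stimulated replicate 1 and 7.30 without stimulated replicate 2. These comparisons have no test, because they share libraries with the choice of the genes, and stimulation cannot be told apart from the sequencing lane. Within DKO cells, replicate 1 exceeded replicate 2 for 6 of 8 genes without and 7 of 8 with stimulation, against 52.2% and 49.4% of all tested genes.

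Over the 8 libraries the members varied together, Rnf152 least. Because all 8 were chosen for a fall in DKO libraries, high correlations between them were built in by the choice. Pearson's r of log2 values ranged from 0.77 to 0.97 (Prox1 with Nckap5) over the 21 pairs without Rnf152, and from 0.42 (with Naip6) to 0.85 (with Ednrb) over its 7 pairs, as a description over libraries that share genotype, lane and depth. By the same measure, the tested genes most like each member were Klrg1 (0.99) and Actg2 (0.99) for Ank3, Lamc1 (0.99) and Il10 (0.98) for Rnf152, Ece1 (0.99) and Ccdc80 (0.99) for Ky, and Ahr (0.98) and Psen2 (0.98) for Ednrb. For Prox1 they were CT025624.1 (0.99) and Arhgef28 (0.99), for Nckap5 Arhgef12 (0.99) and Adam12 (0.99), for Naip6 Nsmaf (0.99) and Tbc1d5 (0.99), and for Ttbk1 Mapk10 (0.99) and Neo1 (0.99). Il10, which encodes a suppressive cytokine of Treg cells, had 885 and 923 normalized counts in unstimulated WT against 50.3 and 56.1 in DKO, and after stimulation 779 and 870 against 253 and 104. Like Rnf152, it was higher in both stimulated than in both unstimulated DKO libraries.

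The paralogs of the members behaved differently from gene to gene. Naip5 followed Naip6. It had 192 and 233 normalized counts in unstimulated WT and 134 and 44.1 in DKO, and after stimulation 168 and 105 against 40.5 and 5.07. All DKO libraries were below the WT libraries, with log2 fold changes of -1.45 (standard error 0.80, limma adjusted p = 0.32) and -3.07 (standard error 0.80, adjusted p = 0.123), and DESeq2 gave an adjusted p of 0.00999 after stimulation. Naip2 had 271 and 259 against 201 and 72.1, and 225 and 185 against 93.7 and 85.3. Naip1 never exceeded 4.19 normalized counts. Because the genes share stretches as long as a read, the 3 measured levels are uncertain where reads could be split.

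**Figure D3:**
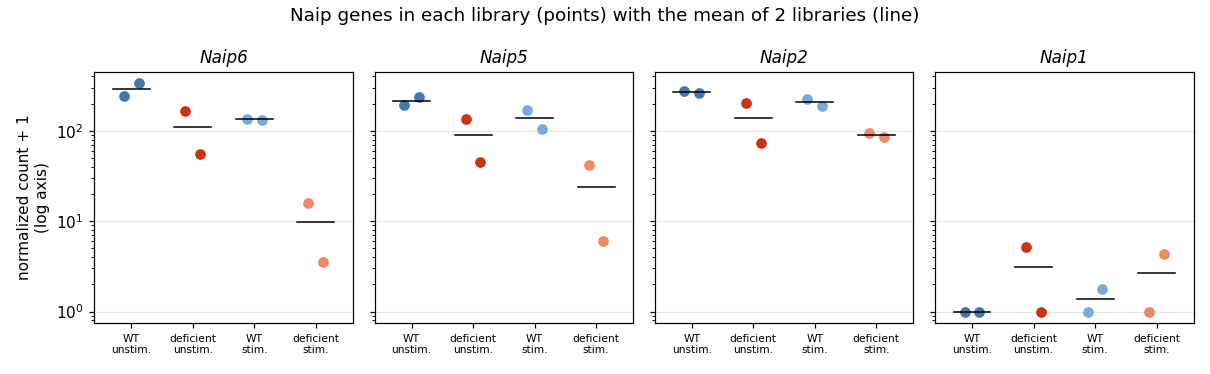
Normalized counts plus 1 (log axis) of Naip6 and its paralogs Naip5, Naip2 and Naip1 in each library, grouped by genotype (deficient meaning labelled DKO) and stimulation, with points for libraries and lines for means of 2. The DKO points of Naip6, Naip5 and Naip2 lie below the WT points in both states, with the widest gap for Naip6 in stimulated cells (132 against 15.1).

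Ttbk2, the other tau tubulin kinase, had 145 and 179 normalized counts in unstimulated WT and 203 and 156 in DKO, with overlap. Nckap5l had 75.5 and 69.4 against 97.5 and 115. Ank1 had 5.40 and 8.86 against 49.3 and 8.01, and Ank2 is described with the ankyrin list. Ednra, the other endothelin receptor, had at most 2.95 normalized counts in any library, and Prox2 had 18.4 and 14.8 against 34.6 and 28.1 in unstimulated cells. None of these passed the test in either state except Ank2 in unstimulated cells, and Ednra and Naip1 were too low to be tested.

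Each member was set beside a list of related genes, 123 listed genes in all, of which 91 were tested. They are called partners here, but they include paralogs, pathway genes, relatives and tissue genes. Not all are known to act with the member. The lists were chosen with earlier results of these data known, so the shares of called partners are not independent of those results. In unstimulated cells 8 of the 91 partners were called lower, against 3.35% of all tested genes, and 1 was called higher, against 1.38%. In stimulated cells 0 were called in either direction (limma), with 13 lower and 3 higher past the same fold when p was left unadjusted (under 0.05), 0 by edgeR, and 5 lower and 1 higher by DESeq2. Leaving out WT replicate 3 or replicate 4 of the unstimulated libraries left 0 calls in unstimulated cells, and leaving out WT replicate 1 or 2 of the stimulated ones, which add to the estimate of the spread, left 4 or 3 lower calls. Without DKO replicate 1 there were 11. The median log2 fold change of the partners was -0.10 in unstimulated and 0.03 in stimulated cells, against -0.01 and 0.02 for all tested genes.

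In the endothelin system 8 of 13 listed genes were tested, and 5 of the 8 had a log2 fold change below 0 in unstimulated cells. The list median was -0.68. Of the 8, 3 were called lower, where 3.35% of all tested genes were. All 3 act on the ligand or below the receptor. Ece1, the enzyme that releases active endothelin, had 2579 and 2548 normalized counts in WT and 857 and 768 in DKO (log2 fold change -1.66, standard error 0.28, limma adjusted p = 0.0156). Plcb4, a phospholipase C that Gq proteins activate, had 1472 and 1584 against 501 and 276 (-2.03, standard error 0.33, adjusted p = 0.0126). Gnaq, which encodes the alpha subunit of Gq, had 744 and 770 against 392 and 258 (-1.25, standard error 0.24, adjusted p = 0.0225). Each of these pairs was tight in WT. In stimulated cells the 3 log2 fold changes were -0.91, -1.66 and -0.64, with adjusted p of 0.177, 0.0627 and 0.269.

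Among the 26 tested genes of amino acid sensing by Rag GTPases and mTORC1, the list of Rnf152, 1 was called lower. Rragd, a Rag GTPase, had 841 and 801 normalized counts in unstimulated WT and 169 and 295 in DKO (log2 fold change -1.87, standard error 0.27, limma adjusted p = 0.0088). After stimulation it had 1390 and 1803 against 967 and 1079 (-0.63, adjusted p = 0.334). The list median was -0.26 without and 0.12 with stimulation. In the list of Ky, 1 of 6 tested Z-disc and filamin genes was called lower, Ttn, which encodes titin. It had 16678 and 24600 normalized counts in unstimulated WT and 9599 and 6411 in DKO (-1.37, standard error 0.27, adjusted p = 0.0233), and 10291 and 8643 against 4432 and 3127 after stimulation (-1.34, adjusted p = 0.0646).

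In the list of Nckap5, 1 of 8 tested genes was called lower, the microtubule end-binding gene Mapre2. It had 1776 and 1706 normalized counts in unstimulated WT and 515 and 745 in DKO (log2 fold change -1.49, standard error 0.27, limma adjusted p = 0.0186). After stimulation it had 1327 and 1208 against 611 and 369 (-1.41, adjusted p = 0.0616). In the list of Ttbk1, 2 of 18 tested genes were called lower. Ccp110, which caps centrioles, had 583 and 451 normalized counts in unstimulated WT and 271 and 198 in DKO (-1.14, standard error 0.24, adjusted p = 0.0287), and the kinase Vrk1 had 1929 and 1514 against 1071 and 896 (-0.80, standard error 0.20, adjusted p = 0.0476). The lists of Prox1 (3 tested genes) and Naip6 (14 tested genes) held 0 called genes in unstimulated cells (limma), with 1 and 3 genes respectively at an unadjusted p under 0.05.

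The ankyrin and spectrin list held the single higher call. Ank2, a close relative of Ank3, was at 0 in both unstimulated WT libraries and had 89.1 normalized counts in DKO replicate 1 and 16.0 in DKO replicate 2 (log2 fold change 5.29, standard error 1.25, limma adjusted p = 0.0444). The 2 DKO libraries ranked as they did for macrophage and B cell markers, and the part of these cells in the value was not tested. Its adjusted p was 0.135 without DKO replicate 1, 0.327 and 0.162 without the unstimulated WT replicates 3 and 4, and 0.0727 and 0.0742 without the stimulated WT replicates 1 and 2. Over the other alternatives it ranged from 0.00174 to 0.141. The other 7 tested genes of the list were not called.

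**Figure D4:**
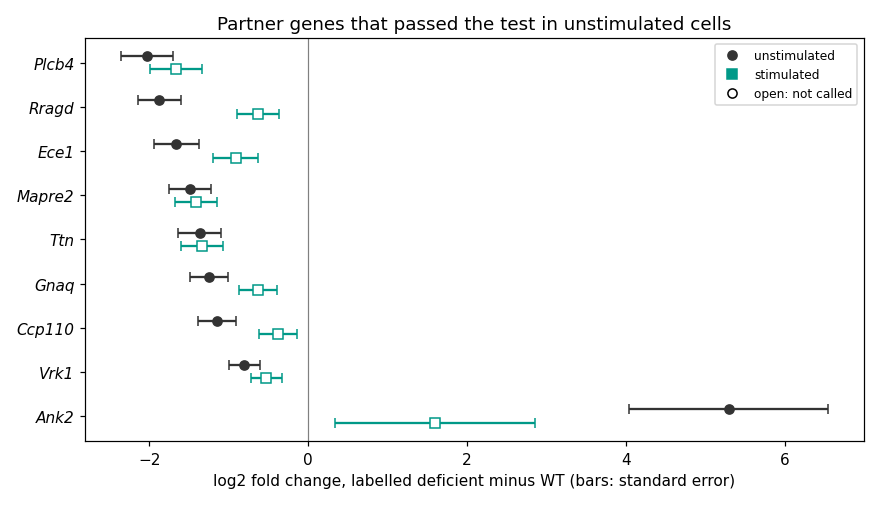
Log2 fold change of DKO over WT (x axis) with its standard error for the 9 partner genes called in unstimulated cells (circles), with the same genes in stimulated cells (squares, open because none was called). The 8 genes called lower lie below 0 in both states, from -2.03 for Plcb4 to -0.80 for Vrk1 in unstimulated cells, and Ank2 lies above 0.

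The genes next to the members on the chromosome were mostly not called, which does not show that they stayed level. The nearest protein-coding gene with a row on each side gave 16 neighbours at 0.461 to 617 kb (RefSeq, GRCm38.p6), of which 10 were tested. In unstimulated cells 1 of these 10 was called lower and 0 higher (limma), against 3.35% and 1.38% of all tested genes. In stimulated cells 0 were called, against 0.11% lower and 0.162% higher. The one called was Cdk1, the cell cycle kinase gene 181 kb from Ank3, with a mean of 272 normalized counts in WT and 29.6 in DKO (log2 fold change -3.42, adjusted p = 0.0201). Rnf152 lies beside Pign, 161 kb away, which had a log2 fold change of 0.39 (adjusted p = 0.309), and Ky lies 40.3 kb from Cep63, with -0.37 (adjusted p = 0.51). Ednrb lies 110 kb from Slain1, whose log2 fold change was -0.02 (adjusted p = 0.974), Prox1 lies 196 kb from Smyd2, with -0.17 (adjusted p = 0.857), and Nckap5 lies 374 kb from Mgat5, with 0.16 (adjusted p = 0.819). Naip6 lies 30.2 kb from Naip5, with -1.45 (adjusted p = 0.32). Dnph1, 9.11 kb from Ttbk1, had means of 22.0 in WT and 5.53 in DKO (-1.96, adjusted p = 0.112). These values are for unstimulated cells. After stimulation the log2 fold changes were -1.51 for Cdk1, -3.07 for Naip5 and -1.69 for Dnph1 (limma adjusted p = 0.328, 0.123 and 0.274). The other tested neighbours then lay between -0.68 (Smyd2) and 0.25 (Slain1).

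The 8 genes lie on 6 chromosomes (GRCm38.p6). Rnf152 spans chr1:105276917-105356991, Nckap5 chr1:125913636-126830796 and Prox1 chr1:190118035-190170827, all on the minus strand. Ky spans chr9:102505755-102546247 and Ank3 chr10:69533486-70027436, both on the plus strand. Naip6 spans chr13:100281121-100316616, Ednrb chr14:103814615-103844508 and Ttbk1 chr17:46442448-46487675, all on the minus strand. No other protein-coding gene with a row overlaps any of them. The antisense transcript Prox1os overlaps Prox1 and had at most 1 read in any library. The sources disagree on whether the library kit marked strand, so that reads of a member and of an overlapping noncoding gene cannot be told apart.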

How the data were processed

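RNA sequencing of sorted mouse Treg cells gave 8 libraries, which were grouped by the genotype and stimulation in their labels. The deposited table holds signal: reads of each gene, which the authors divided by 1 factor a library, and DESeq2 size factors departed from that scaling by at most 9.69e-05 percent. Whole reads were recovered for 100% of the values (tolerance 0.006). The sources differ on how reads were made into counts. The study's methods give single reads, Bowtie, build NCBIM37, unique reads, Picard and HTSeq with a TruSeq kit that does not mark strand, whereas the submitters' processing notes and labels give STAR 2.7, mm10 and a stranded kit. The table holds no coordinates, so positions and promoters come from RefSeq (GRCm38.p6) by symbol, and lengths and transcripts from GENCODE M1. Of the 52459 symbols, 66.9% were found in RefSeq and 54.9% in GENCODE M1.

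Log2 values (pseudocount 1) of the 15419 genes that averaged 10 or more normalized counts were fitted with limma 3.58.1 in R 4.3.3 (trended prior, 1 spread for 4 groups). Tests were 2-sided, adjusted by Benjamini-Hochberg over all tested genes, and a call needed an adjusted p under 0.05 and a change over 1.5-fold. Counting intervals are exact binomial ones at 95% on the pooled reads of 2 libraries, without the spread between them. Each sample was a pool of mice per the methods, which do not say whether samples shared a pool, so p measures only the spread between these samples, which may be technical. With 2 libraries a group, the labels pair no unstimulated libraries. Named genes are the members, called partners (at most 4 a list), paralogs, flanking genes with a row, the 2 genes most alike, the genes ranked 1 to 6, Stim1 and Stim2. Foxp3 was named as a marker, Il10 by likeness and Angpt2 as a gene of the Prox1 list. The members and lists were chosen with earlier results of these data known. Alternatives were pseudocounts of 0.1 and 5, no filter, equal totals or upper quartiles, edgeR 4.0.16 and DESeq2 1.42.0 on recovered reads, the 4 libraries of a contrast, a replicate block, each library left out, and unadjusted p. The script was tested on simulated data. Naip7 was not analysed here. The level of 1 marker gene is not reported here.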

Additional observations from a re-analysis of the deposited data

Results flagged for a closer look

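Prox2, the paralog of Prox1, moved in opposite directions in the 2 states. It was higher in both DKO than in both WT libraries without stimulation and lower in both with stimulation, where it had 51.4 and 41.0 normalized counts in WT and 38.9 and 30.4 in DKO (log2 fold change -0.407). Neither difference passed the test, and the difference between the states was not tested.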

How the results depend on the processing

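With 2 libraries a group, counts of calls depend on single libraries. Of the genes chosen in stimulated cells, 2 were called in unstimulated cells, 0 with a pseudocount of 0.1, 4 by unadjusted p, and 0 to 3 when a library was left out. Of those chosen in unstimulated cells, 0 were called in stimulated cells, 1 by DESeq2, 4 by unadjusted p, and 0 to 2 when a library was left out. Among partners in unstimulated cells, the 8 lower calls became 4 in a fit to the 4 libraries of the contrast and 18 by unadjusted p (0 to 13 with a library left out), and the 1 higher call became 0 with a pseudocount of 0.1, equal totals or edgeR and 4 by unadjusted p (0 to 1 with a library left out). In stimulated cells, the 0 lower and 0 higher partner calls became 5 and 1 by DESeq2, and 13 and 3 by unadjusted p (0 to 10 and 0 to 2 with a library left out). Stimulated libraries share replicate numbers that the labels do not tie to a pool, and same-numbered libraries deviated together at r = 0.17 in 2 pairs. A replicate block gave 0 member calls, and 4 lower and 2 higher partner calls, and it raised the calls of all tested genes from 17 to 202 lower and from 25 to 191 higher. No paired analysis was possible in unstimulated cells because the groups share no replicate number. Over the alternatives with adjusted p, called genes in unstimulated cells numbered 255 to 810 lower and 83 to 511 higher, and in stimulated cells 0 to 287 lower and 1 to 238 higher. With a library left out these ranges were 8 to 924, 0 to 374, 0 to 551 and 0 to 211. Rescaling to equal totals or upper quartiles shifted log2 fold changes in unstimulated cells by 0.12 or 0.16, and no member changed direction under any alternative. Leaving out a library moved Ank1 in stimulated cells from -1.46 to 0.49 (log2), with reversals without DKO replicate 2 (0.49) and WT replicate 1 (0.28), and Ttbk2 in unstimulated cells from -0.041 to 0.34, with reversals without DKO replicate 1 (-0.041) and WT replicate 3 (-0.00357). The cause was not tested. Levels of a few reads limit the folds of Ank3, Rnf152, Ky, Ednrb, Prox1 and Nckap5.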
